A study of Homo sapiens with 11 samples.

Results

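Transcript levels of 10 genes of the YAP and TEAD pathway were followed through 11 RNA libraries of H1299, a human non-small cell lung carcinoma line that has lost its own p53. They are the coactivators YAP1 and WWTR1 (the gene of TAZ), the DNA-binding partner TEAD1, the regulators LATS2, AMOTL2 and AJUBA, and 4 genes known as targets, CYR61, CTGF, ANKRD1 and AXL. Each was taken as the row of the deposited count table that carries its symbol, with CYR61 and CTGF (now CCN1 and CCN2) under their older names, and each had 1 such row. The table lists 45965 genes, of which 16324 had enough counts to be tested, and all 10 were among these. The genes were selected on earlier results of these data, in which the levels of CYR61 and ANKRD1 had stood out in the comparison of R273H with R175H on P72. Their values in that comparison are therefore given as a description, with fold changes and standard errors and no p-value.

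In the Hippo pathway the kinases STK3 and STK4 (MST2 and MST1) activate LATS1 and LATS2, which phosphorylate YAP and TAZ and keep them out of the nucleus. When the kinases are inactive, YAP and TAZ enter the nucleus and bind TEAD proteins, which recognise GGAATG and close variants, often beside AP-1 sites. Matrix stiffness, cell spreading and cell density all feed into this switch, and in carcinoma cells its output is commonly read from CYR61, CTGF and ANKRD1. Phosphorylation and nuclear entry are not measured by RNA counts, so the values below are those of transcripts alone.

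The cells carried p53 with the hotspot mutation R175H or R273H, each on the proline (P72) or the arginine (R72) form of the common codon 72 polymorphism. The constructs (5 µg of DNA) were transfected with Fugene, and stable lines were selected in neomycin at 800 µg/ml for 14 days. There were 3 libraries of R175H P72, 3 of R175H R72, 4 of R273H P72 and 1 of R273H R72. Every group carries a mutant p53, and no line without one was analysed here. The labels do not say whether the libraries of a group came from separate transfections or cultures, nor whether a line is 1 clone, so p-values measure the spread between these libraries, which may be technical.

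The labels also give a batch, b1 or b2, without saying what was batched. All 3 R175H P72 libraries and the R273H R72 library were b2, R175H R72 had 1 b1 library (replicate 1) and 2 b2 libraries, and R273H P72 had 1 b2 library (replicate 1) and 3 b1 libraries. A batch term fitted beside the groups therefore rests on R175H R72 replicate 1 and R273H P72 replicate 1. Totals ran from 8346926 to 12829560 counts. Levels are CPM values, that is counts relative to the library total, scaled by the trimmed mean of M-values (TMM). QuantSeq libraries read the 3′ end of each transcript, so a change in isoform that keeps that end is not seen. Of the epithelial markers, KRT8 and KRT18 together with EPCAM summed to 913 to 1284 CPM, nearly all of it KRT8 and KRT18, while EPCAM stayed under 1 CPM. The fibroblast markers COL1A2 and LUM, the T cell marker CD3E and the endothelial marker CDH5 had no count in any library.

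To show the sites at which TEAD could bind, the 250 bases before the annotated start were read for the targets from RefSeq (GRCh38.p14). Windows were found for 8 of the 10 genes, and none was found for CYR61 or TEAD1. The windows of CTGF, at chr6:131951373-131951622 on the minus strand, and of ANKRD1, at chr10:90921088-90921337 on the minus strand, are shown because both genes were higher in every R273H P72 library than in any R175H P72 library. The first of the 2 AXL windows, at chr19:41218973-41219222 on the plus strand, is shown beside them as that of a target whose level hardly moved. Capitals mark GGAATG, searched on both strands.

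CTGF: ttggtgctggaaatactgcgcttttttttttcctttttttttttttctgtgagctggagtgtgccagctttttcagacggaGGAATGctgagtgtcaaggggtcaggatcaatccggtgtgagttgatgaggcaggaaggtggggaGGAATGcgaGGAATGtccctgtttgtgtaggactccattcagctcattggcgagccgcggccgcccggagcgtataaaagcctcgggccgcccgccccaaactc

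ANKRD1: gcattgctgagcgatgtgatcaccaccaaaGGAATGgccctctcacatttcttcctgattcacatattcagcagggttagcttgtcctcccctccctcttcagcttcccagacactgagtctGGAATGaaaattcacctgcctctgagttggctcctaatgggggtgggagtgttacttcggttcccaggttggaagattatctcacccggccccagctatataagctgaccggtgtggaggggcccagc

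AXL: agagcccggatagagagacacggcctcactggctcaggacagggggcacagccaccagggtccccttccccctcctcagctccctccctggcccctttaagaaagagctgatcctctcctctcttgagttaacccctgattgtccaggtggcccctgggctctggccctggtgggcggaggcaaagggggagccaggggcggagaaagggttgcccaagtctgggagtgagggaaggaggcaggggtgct

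GGAATG began 169, 104 and 95 bases before the CTGF start, and 220 and 128 bases before the ANKRD1 start. GENCODE 29 places the starts of ANKRD1 (90921276) and AXL (41219203) inside these windows. The first AXL window held none, and the second, not printed, held it once, 212 bases before its start. Over all 35116 RefSeq windows, which include a further 50 bases after the start, 14.0% held GGAATG at least once, 1.37% at least 2 times and 0.128% at least 3 times. The AP-1 motif TGANTCA, searched on both strands, occurred once in these windows, 195 bases before the ANKRD1 start, and was in 7.71% of all windows. Neither motif overlapped the other. The serum response element known as the CArG box occurred in none of the members' windows and in 1.29% of all. Counted in the same way, with the bases after the start, 7 of the 12 windows of the 8 genes held GGAATG, that of LATS2 10 bases after its start. Besides CTGF and ANKRD1, these were windows of AXL, AMOTL2, AJUBA, LATS2 and YAP1. These matches describe the sequence, and binding was not measured.

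CYR61 and CTGF encode secreted matricellular proteins of the CCN family that bind integrins. CYR61 (ENSG00000142871, chr1:85580761-85583962, plus strand) stood at 725, 434 and 704 CPM in the R175H P72 libraries (replicates 1, 2 and 4). It stood at 326, 1005 and 1021 CPM in R175H R72 (replicates 1, 2 and 4), at 1826, 1052, 853 and 975 CPM in R273H P72 (replicates 1 to 4), and at 870 CPM in the single R273H R72 library. Every R273H P72 library was above every R175H P72 library, while the R175H R72 libraries spanned both. The means were 621 ± 162 (SD, n = 3), 784 ± 396 (SD, n = 3) and 1177 ± 441 (SD, n = 4) CPM in R175H P72, R175H R72 and R273H P72. In order from the highest, R273H P72, R273H R72, R175H R72 and R175H P72 each overlapped the next in the range of their libraries. The lowest level of CYR61, in R175H R72 replicate 1, and the highest, in R273H P72 replicate 1, were 5.59-fold apart, the widest range of the 10 genes.

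The batch moved with CYR61. Within R175H R72 the b1 library had 0.322 times the mean of the b2 libraries, and within R273H P72 the b1 libraries averaged 0.526 times the b2 library. Compared inside b2, R273H P72 replicate 1 had 2.94 times the mean CYR61 level of R175H P72. Inside b1, the mean of R273H P72 was 2.94 times the level of the R175H R72 library, which differs from it in codon 72 as well. The ratio of the plain group means on P72 was 1.90.

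CTGF (ENSG00000118523, chr6:131948176-131951373, minus strand) followed the same order with a narrower range. It stood at 184, 126 and 203 CPM in R175H P72, at 149, 264 and 247 CPM in R175H R72, at 269, 302, 238 and 223 CPM in R273H P72, and at 235 CPM in R273H R72. All 4 R273H P72 libraries lay above all 3 R175H P72 libraries. The R175H R72 libraries spanned both groups, and the R273H R72 library lay inside the range of R273H P72. Means were 171 ± 40.1 (SD, n = 3), 220 ± 61.9 (SD, n = 3) and 258 ± 35.0 (SD, n = 4) CPM. Within R175H R72, the b1 library was again the low one, at 0.585 times the b2 mean. The other CCN genes were far lower: NOV (CCN3) stayed between 0.704 and 3.09 CPM and WISP3 (CCN6) had 1 to 13 counts per library, and with edgeR neither passed in any comparison. WISP1 and WISP2 had too few counts to be tested.

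ANKRD1 encodes a cardiac ankyrin repeat protein of the nucleus and sarcomere and is among the most used readouts of YAP in epithelial cells. Its level in R273H over R175H on P72 was known when the genes were chosen. ANKRD1 (ENSG00000148677, chr10:90912096-90921276, minus strand) stood at 11.6, 11.5 and 13.1 CPM in R175H P72, at 13.1, 13.2 and 17.6 CPM in R175H R72, at 24.7, 40.6, 28.0 and 21.6 CPM in R273H P72, and at 14.0 CPM in R273H R72. All 4 R273H P72 libraries were above all 7 others. How many of all genes tested separate in this way was not counted, and nothing is read from it. The means were 28.7 ± 8.34 (SD, n = 4) CPM in R273H P72, 14.6 ± 2.61 (SD, n = 3) in R175H R72 and 12.1 ± 0.912 (SD, n = 3) in R175H P72. The R273H R72 level lay inside the range of R175H R72, with a counting interval of 11.8 to 16.4 CPM (95%, exact Poisson, counting error only, 150 counts). R175H R72 and R175H P72 overlapped. The ratio of R273H P72 to R175H P72 was 2.05 inside b2 and 2.38 between the group means.

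AXL is a receptor tyrosine kinase for the ligand GAS6, tied to invasion and drug resistance in lung carcinoma. AXL (ENSG00000167601, chr19:41219203-41261766, plus strand) ran only from 830 to 995 CPM over the 11 libraries. Its means were 909 ± 28.0 (SD, n = 3) in R175H P72, 910 ± 82.7 (SD, n = 3) in R175H R72 and 923 ± 55.8 (SD, n = 4) in R273H P72, with 867 CPM in R273H R72. All 4 groups overlapped or, for the single library, lay inside the range of R175H R72.

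**Figure D1:**
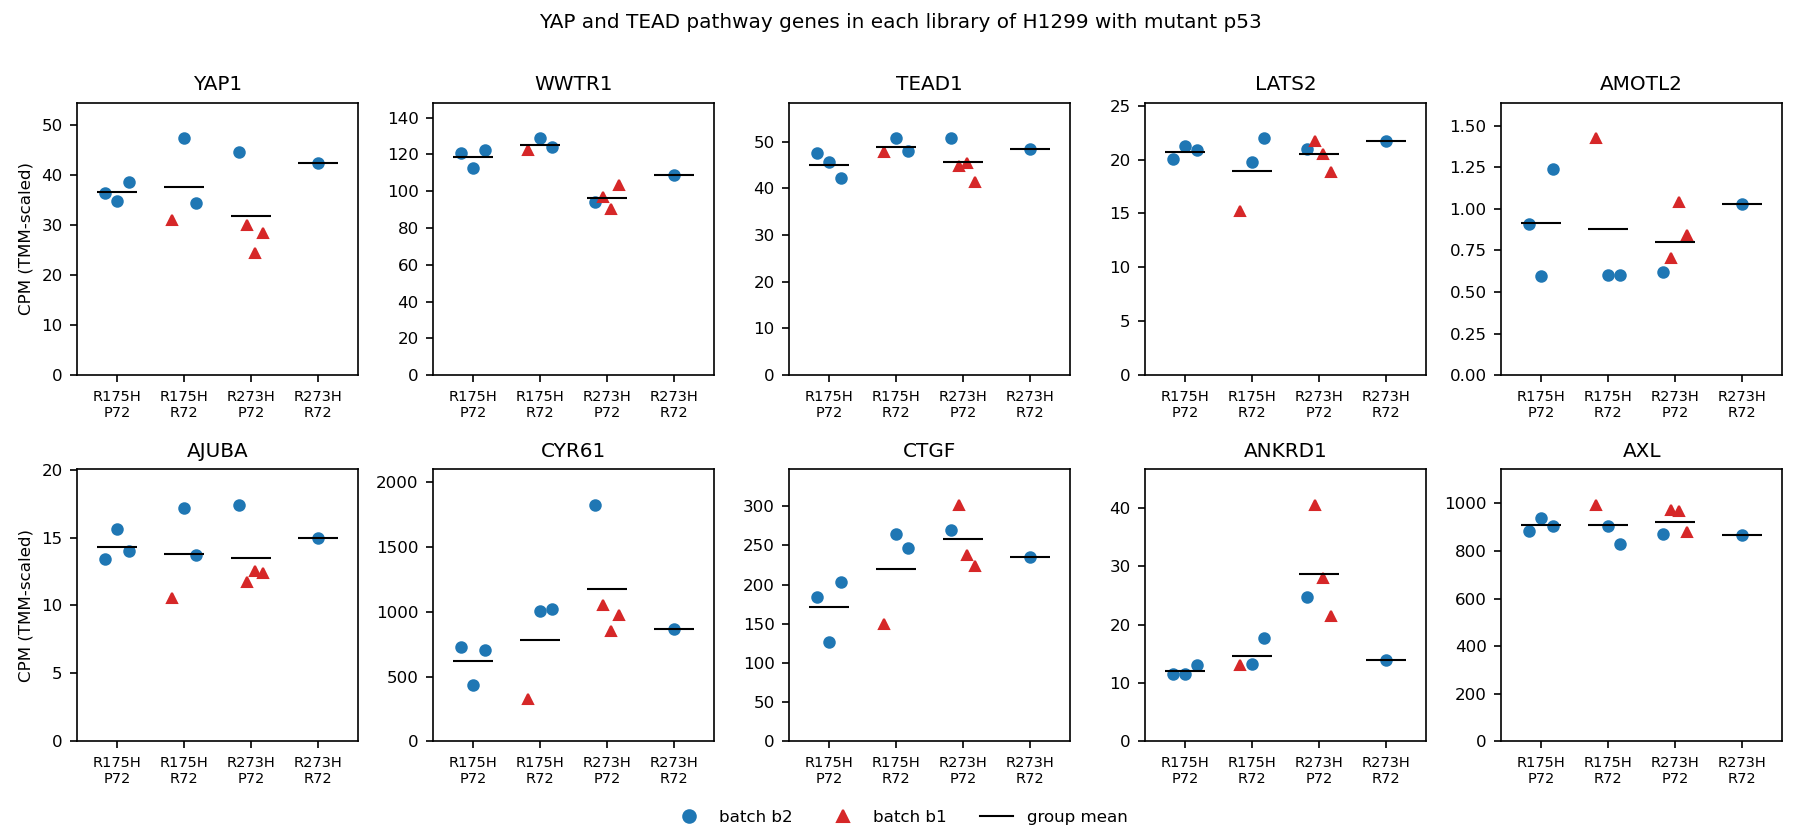
Level of each of the 10 genes (vertical axis, TMM-scaled CPM, from 0) in the 11 libraries, by group on the horizontal axis; blue circles are batch b2, red triangles batch b1, and black bars group means. CYR61, CTGF and ANKRD1 lie higher in all 4 R273H P72 libraries than in all 3 R175H P72 libraries, WWTR1 lies lower, and AXL stays between 830 and 995 CPM.

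The coactivators did not share one pattern. WWTR1 (ENSG00000018408, chr3:149517235-149736714, minus strand) stood at 121, 113 and 122 CPM in R175H P72, at 122, 129 and 124 CPM in R175H R72, at 94.2, 96.9, 90.4 and 103 CPM in R273H P72, and at 109 CPM in R273H R72. All 4 R273H P72 libraries were below all 7 others, and here too the share of all genes tested was not counted. The single R273H R72 library lay between them and the R175H libraries, and its counting interval (102 to 115 CPM) reached into both neighbouring ranges. The 2 R175H groups overlapped, at 119 ± 5.23 (SD, n = 3) on P72 and 125 ± 3.35 (SD, n = 3) CPM on R72, against 96.2 ± 5.45 (SD, n = 4) CPM in R273H P72. Inside b2 the ratio of R273H P72 to R175H P72 was 0.794.

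YAP1 (ENSG00000137693, chr11:102110461-102233423, plus strand) overlapped between R175H P72, R175H R72 and R273H P72. It stood at 36.4, 34.8 and 38.6 CPM in R175H P72, at 31.0, 47.3 and 34.4 CPM in R175H R72, at 44.5, 30.0, 24.3 and 28.3 CPM in R273H P72, and at 42.3 CPM in R273H R72. The 4 b1 libraries, between 24.3 and 31.0 CPM, were the 4 lowest of the 11. Of these, 3 are R273H P72, so batch and group cannot be ranked from this. How many of all genes tested separate by batch was not counted. TEAD1 (ENSG00000187079, chr11:12674591-12944483, plus strand), which supplies the DNA contact for both coactivators, ranged from 41.4 to 50.7 CPM, with group means of 45.1 ± 2.72 (SD, n = 3), 48.9 ± 1.62 (SD, n = 3) and 45.6 ± 3.83 (SD, n = 4) and 48.3 CPM in the single library.

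Among the regulators, LATS2 is the kinase that phosphorylates YAP and TAZ and is itself a YAP target. LATS2 (ENSG00000150457, chr13:20973032-21061547, minus strand) ranged from 15.2 to 22.0 CPM, with the lowest value in R175H R72 replicate 1 and the other 10 libraries at 18.8 CPM or more. AJUBA is a LIM protein that binds and inhibits LATS kinases. AJUBA (ENSG00000129474, chr14:22971174-22982642, minus strand) ranged from 10.6 to 17.4 CPM. Its 4 b1 libraries were the 4 lowest, with the same limits as for YAP1. In R273H P72 the b2 library stood at 17.4 CPM against 11.7 to 12.6 CPM in the 3 b1 libraries. AMOTL2 is an angiomotin family scaffold that holds YAP at cell junctions. AMOTL2 (ENSG00000114019, chr3:134355874-134375479, minus strand) had only 5 to 14 counts per library, 0.596 to 1.42 CPM, and at this depth no difference between groups was detectable. Genes that overlap an exon of CTGF, AMOTL2, AXL, AJUBA, YAP1 or WWTR1 had at most 11 counts in total over the 11 libraries (WWTR1-AS1), against 95 or more for each of these genes.

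Across all genes, the hotspots were compared on P72 with edgeR's quasi-likelihood test on the counts, with terms for group and batch and Benjamini-Hochberg adjustment over all 16324 genes, at a threshold of 0.05. The fit put CYR61 3.51-fold higher in R273H than in R175H on P72 (log2 fold change 1.81, SE 0.28), ANKRD1 2.27-fold higher (1.18, SE 0.25) and CTGF 1.86-fold higher (0.90, SE 0.28). WWTR1 was at 0.812 of its R175H level (log2 fold change -0.30, SE 0.10). The remaining log2 fold changes were 0.29 (SE 0.16) for AJUBA, 0.19 (SE 0.14) for YAP1, 0.15 (SE 0.15) for LATS2, 0.12 (SE 0.11) for TEAD1, -0.09 (SE 0.09) for AXL and -0.82 (SE 0.64) for AMOTL2. Past the threshold were 2 of the 10 genes higher (CYR61 and ANKRD1) and 1 lower (WWTR1), in a comparison that called 14.6% of all genes tested, 6.95% higher and 7.6% lower. Since the genes were chosen with this comparison known, nothing is read from that count. The groups did not overlap for 4 of the 10 genes, 3 higher and 1 lower, against 28.1% of all genes tested. The median log2 fold change of the 10 genes was 0.17, and that of all genes tested was 0.00303.

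How the batch was handled changed the size of the CYR61 difference. Without a batch term the log2 fold change of CYR61 was 0.92, and 2 of the 10 genes passed the threshold, against 3 as reported. Without R273H P72 replicate 1 the log2 fold change of CYR61 was 2.26. CYR61 passed the threshold in 19 of the 20 alternative settings and lost its call without a batch term. That term rests on R175H R72 replicate 1 and R273H P72 replicate 1. Over the 20 alternative settings ANKRD1 stayed between 1.03 and 1.55, CTGF ranged from 0.59 to 1.35, and WWTR1 from -0.34 to -0.24, so both kept their direction. ANKRD1 passed the threshold in all 20, WWTR1 in 12 and CTGF in 3. With 1 library left out at a time, WWTR1 passed in 6 of 11 fits. These fits reuse the libraries with which the genes were chosen. Their counts therefore show only how the calls depend on the settings, and are no support for the differences.

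**Figure D2:**
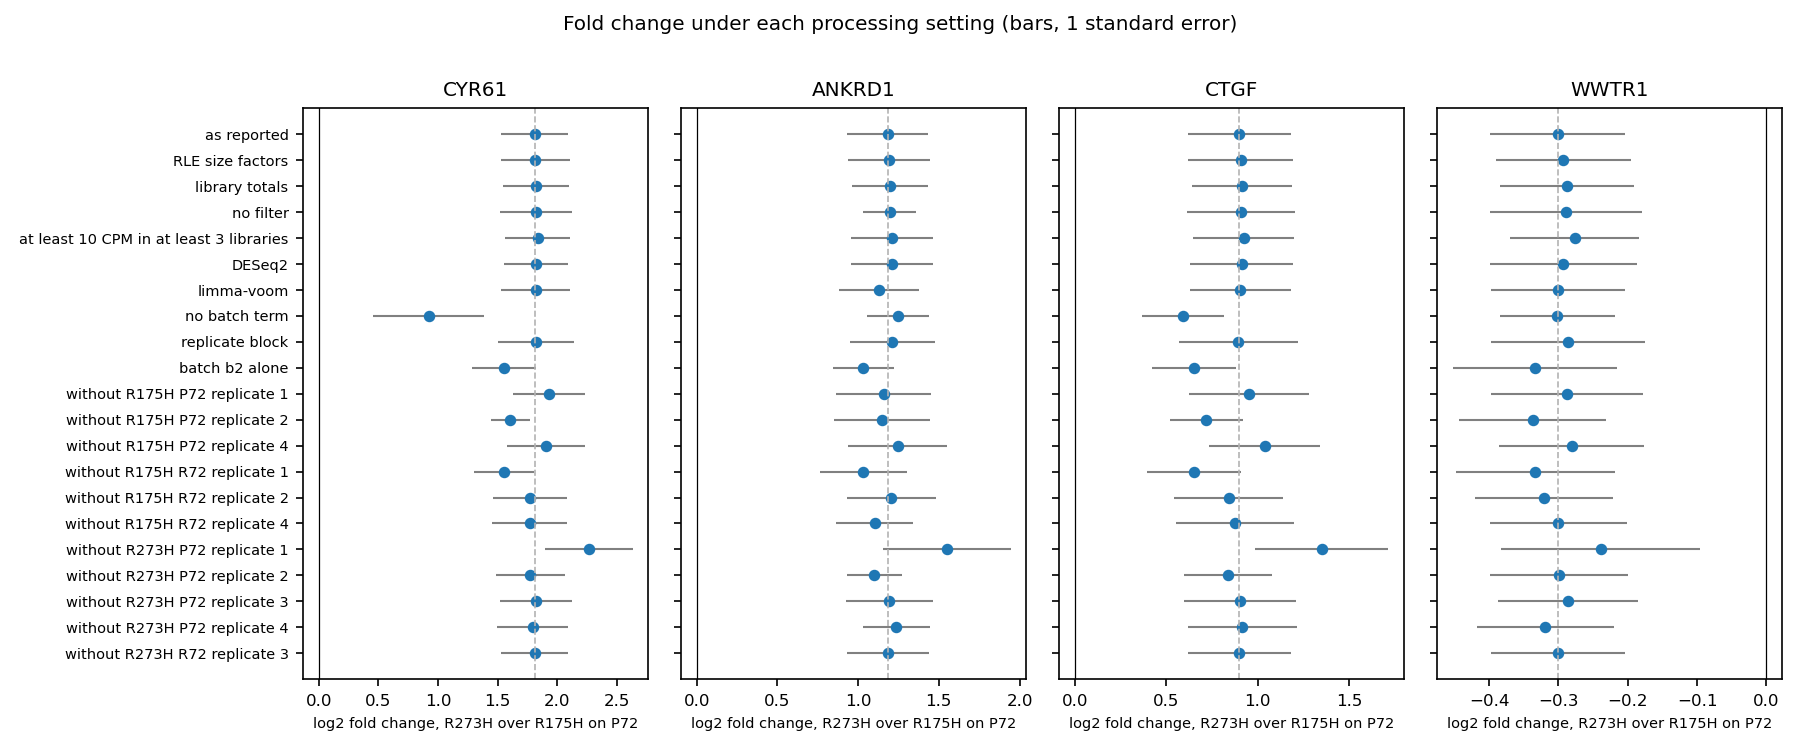
Log2 fold change of R273H over R175H on P72 (horizontal axes, each with its own range) for CYR61, ANKRD1, CTGF and WWTR1 under the reported fit and 20 alternatives (rows); points are estimates, bars 1 standard error, the dashed line the reported value and the solid line 0. CYR61 falls to 0.92 without a batch term and rises to 2.26 without R273H P72 replicate 1, and no point of the 4 genes crosses 0.

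The batch term, b1 against b2, came from the same fit and trades off against the difference on P72, so its values are a description. CYR61 had a log2 fold change of -1.26 (SE 0.25), YAP1 one of -0.56 (SE 0.12) and AJUBA one of -0.53 (SE 0.14), all lower in b1. CTGF had -0.40 (SE 0.24) and ANKRD1 0.07 (SE 0.22). Past the edgeR threshold were 3 of the 10 genes, all lower, where 9.21% of all genes tested were called and 5.61% were lower, and nothing is read from that count. What part the batch has in the group differences of YAP1, AJUBA and CYR61 beyond the fitted term was not tested.

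The effect of the codon 72 form was compared on each hotspot. On R175H there were 3 libraries against 3, and the P72 libraries are those of the hotspot comparison known when the genes were chosen. The p-values and intervals of the 10 genes are therefore a description here and no independent test. None of the 10 genes passed the threshold with edgeR, where 1.13% of all genes tested did. An unadjusted p under 0.05 was found for 1 of the 10, against 13.6% of all genes tested. That gene was CYR61, with a log2 fold change of R72 over P72 of 0.59 (SE 0.24, 95% interval 0.03 to 1.16, edgeR adjusted p = 0.347). CTGF had 0.47 (SE 0.24, adjusted p = 0.458) and ANKRD1 0.25 (SE 0.23, adjusted p = 0.702). The intervals of the remaining genes other than AMOTL2 all lay between -0.33 and 0.47. TEAD1 was the 1 gene of the 10 whose R72 libraries were all above the P72 libraries (47.8 to 50.7 against 42.1 to 47.5 CPM), against 6.81% of all genes tested, and its log2 fold change was 0.16 (SE 0.10, adjusted p = 0.487).

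On R273H the R72 form is a single library, whose spread the fit takes from the other groups, and the P72 libraries are those on which CYR61 and ANKRD1 were known to be high when the genes were chosen. The members' values here are therefore a description. No gene of the 16324 passed the threshold with edgeR, a background of 0%, and no p-value of the members is read here. CYR61 had a log2 fold change of R72 over P72 of -1.32 (SE 0.39, 95% interval -2.24 to -0.41), and ANKRD1 one of -0.97 (SE 0.33, 95% interval -1.69 to -0.25). Inside b2, which leaves 1 library against 1, the R72 library had 0.476 times the CYR61 level and 0.566 times the ANKRD1 level of the P72 library. WWTR1 had 0.17 (SE 0.13) and CTGF -0.44 (SE 0.37).

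The difference between the codon 72 effects on the 2 hotspots was fitted as an interaction. It contains the P72 comparison of the hotspots that was known when the genes were chosen, so for the 10 genes it is a description and no test. CYR61 had a difference of -1.92 on the log2 scale (SE 0.48), ANKRD1 one of -1.22 (SE 0.43) and CTGF one of -0.91 (SE 0.46). None of the 10 genes passed with edgeR, where 0.0306% of all genes tested did. No p-value of the 10 genes is read here. DESeq2 called 1 of the 10 both here and for R72 on R273H. In both comparisons edgeR with no filter on low counts also called 1, a different gene, and nothing is read from these counts.

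On R72 the hotspots were compared with 1 R273H library against 3 of R175H. None of the 10 genes passed with edgeR and none had an unadjusted p under 0.05, where 0.0429% of all genes tested were called. CYR61 had a log2 fold change of -0.11 (SE 0.33, 95% interval -0.89 to 0.68), CTGF one of -0.01 (SE 0.33, 95% interval -0.78 to 0.76) and ANKRD1 one of -0.04 (SE 0.31, 95% interval -0.71 to 0.64). How far these values differ from those on P72 is the same quantity as the interaction. WWTR1 had -0.20 (SE 0.12, 95% interval -0.45 to 0.04). All 10 adjusted p-values were 1.

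**Figure D3:**
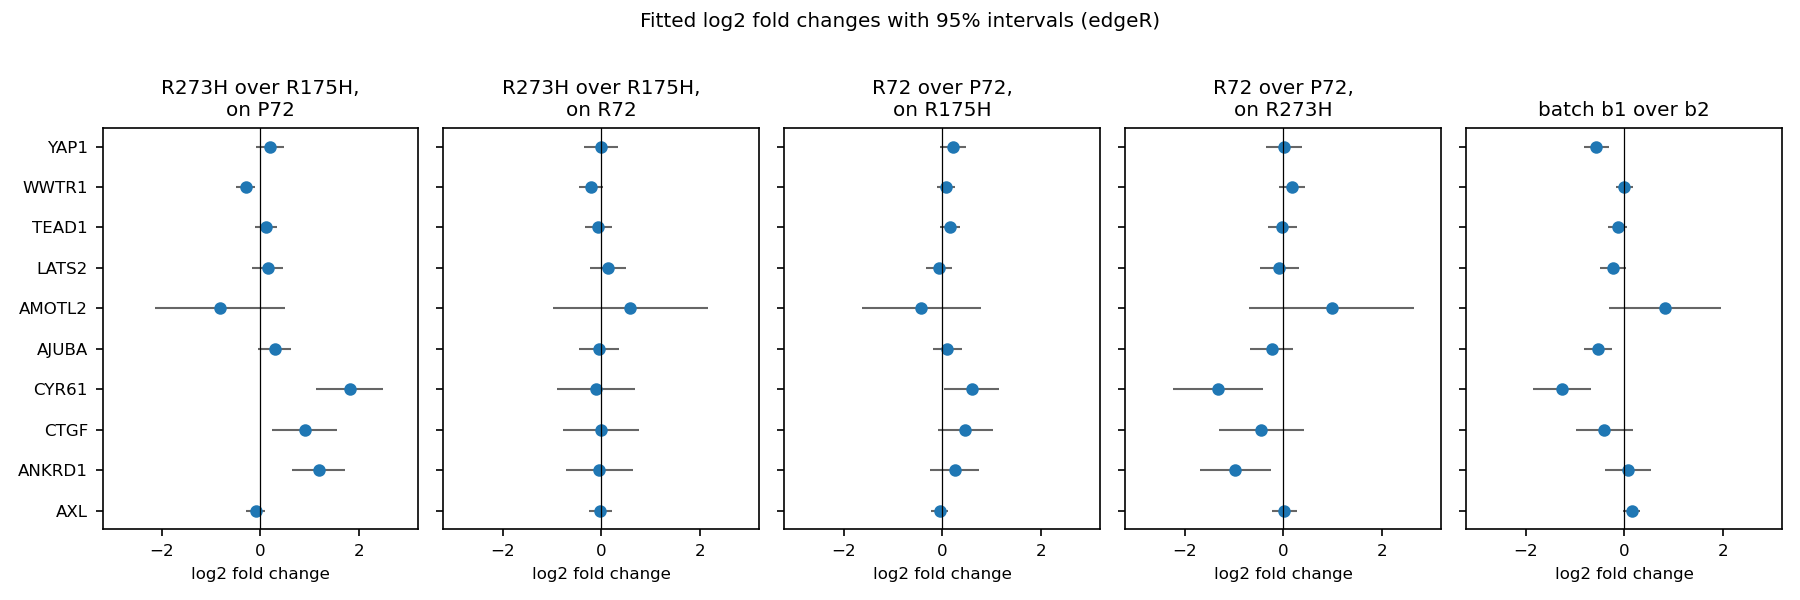
Fitted log2 fold change (horizontal axis) of each of the 10 genes (rows) in 4 group comparisons and for the batch term; points are edgeR estimates and bars 95% intervals. CYR61, CTGF and ANKRD1 lie to the right of 0 for R273H over R175H on P72 and close to 0 for the same comparison on R72, and AMOTL2, with 5 to 14 counts, has the widest bars.

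Other genes of the pathway were taken from 5 lists, which were chosen with earlier results of these data known. Their counts, medians and adjusted p-values on P72 are therefore no independent support for the values of the 10 genes. Of 22 other known targets of YAP and TAZ, 20 could be tested, and 6 rose and none fell in R273H over R175H on P72, where 6.95% of all genes tested rose and 7.6% fell. In plain CPM, with no batch term, 5 of the 20 were higher in every R273H P72 library than in any R175H P72 library, against 14% of all genes tested. As many, MYOF, ASAP1, NT5E, DOCK5 and TGM2, were lower in every library, against 14.1%. The median log2 fold change of the 20 was 0.41. CCDC80, a matrix protein, went from 67.8, 63.8 and 71.4 CPM in R175H P72 to 106, 130, 111 and 114 CPM in R273H P72, with no overlap (log2 fold change 0.76, SE 0.11, edgeR adjusted p = 0.000173). THBS1, thrombospondin 1, rose by 0.74 (SE 0.18, adjusted p = 0.00759). CRIM1, a transmembrane protein that binds BMPs, rose by 0.64 (SE 0.12, adjusted p = 0.00115). F3, the tissue factor that starts coagulation, and the kinase NUAK2 rose by 1.33 (SE 0.33, adjusted p = 0.00779) and 1.24 (SE 0.33, adjusted p = 0.0122), at low levels of 1.31 to 4.95 CPM for F3 and 1.53 to 4.38 CPM for NUAK2. CRIM1 was also lower in b1 than in b2, with a log2 fold change of -0.59 (adjusted p = 0.00104). Without a batch term CRIM1 and THBS1 did not pass. Inside b2 alone 3 of the 20 passed, CCDC80 and CRIM1 among them. THBS1 and NUAK2 did not pass without R175H R72 replicate 1, nor F3 and NUAK2 without R273H P72 replicate 1.

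With edgeR none of these 20 targets passed in a comparison of codon 72 or of the hotspots on R72. Other settings called some: DESeq2 called 1 in the R175H comparison of codon 72, 2 in the R273H comparison and 2 in their difference, and edgeR with no filter called 2 in each of the 3. For R72 on R175H, 1 was also called inside b2, 1 with the stricter filter, and 2 without R175H P72 replicate 4. Also for R72 on R175H, 1 was called without R175H R72 replicate 1 or R273H P72 replicate 1 or 2. For the difference, 1 was called without R175H P72 replicate 4 or R273H P72 replicate 1. With R72 on R175H, 7 of the 20 had an unadjusted p under 0.05, against 13.6% of all genes tested, and the smallest edgeR adjusted p was that of THBS1 (log2 fold change 0.60, SE 0.15, adjusted p = 0.0654). With R72 on R273H, 4 of the 20 did, against 7.75% of all, among them CCDC80 (-0.60, SE 0.15, adjusted p = 0.189). For the difference between the 2 codon 72 effects, 7 did, against 10.2% of all, and CCDC80 had the smallest adjusted p (-0.89, SE 0.19, adjusted p = 0.079). For the hotspots on R72, 1 of the 20 did, against 4.62% of all. The single R273H R72 library stood at 75.3 CPM for CCDC80, below all 4 R273H P72 libraries.

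Of 25 upstream Hippo genes, all tested, 4 fell and 1 rose in R273H over R175H on P72, where 7.6% of all genes fell and 6.95% rose. Their median log2 fold change was -0.12. STK4, the kinase that activates LATS, stood at 222, 225 and 199 CPM in R175H P72 and at 148, 176, 182 and 179 CPM in R273H P72 (log2 fold change -0.57, SE 0.10, edgeR adjusted p = 0.000744). NF2 (merlin), which recruits LATS to the membrane, fell by 0.39 (SE 0.13, adjusted p = 0.0386). MAP4K4, which can act beside STK4, fell by 0.35 (SE 0.09, adjusted p = 0.0136), and STRN3, a subunit of the STRIPAK phosphatase complex that opposes STK4, fell by 0.39 (SE 0.11, adjusted p = 0.0153). STK4, NF2 and MAP4K4 act towards LATS activity, and STRN3 against it. STK4 passed in 19 of 20 alternative settings, MAP4K4 in 15, STRN3 in 14 and NF2 in 10. Leaving out R175H P72 replicate 2, R175H R72 replicate 1 or R273H P72 replicate 1 in turn each took MAP4K4 below the threshold. STRN3 lost its call without R175H P72 replicate 2, R175H R72 replicate 1 or R273H P72 replicate 1. With no batch term the log2 fold change was -0.12 for STRN3, -0.29 for MAP4K4 and -0.33 for STK4. In plain CPM the STRN3 libraries of R273H P72 and R175H P72 overlapped. NF2 lost it without R175H P72 replicate 1 or 4, R175H R72 replicate 1 or 2, or R273H P72 replicate 3 or 4.

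Of the partners of TEAD1, 5 of 7 could be tested on P72, and 1 fell, where 7.6% of all genes tested did. VGLL4, which competes with YAP for TEAD, stood at 27.4, 31.8 and 26.2 CPM in R175H P72 and at 21.5, 18.8, 20.3 and 22.8 CPM in R273H P72, without overlap (log2 fold change -0.50, SE 0.14, edgeR adjusted p = 0.0184). It did not pass without R175H P72 replicate 2 or R175H R72 replicate 1. Of 19 genes of SRF and AP-1 that could be tested, factors that share many targets with YAP, 3 rose and 2 fell, where 6.95% and 7.6% of all genes tested did, and the median was 0.02. FOSL2, an AP-1 subunit, rose by 0.66 (SE 0.15, adjusted p = 0.00388), EGR1 by 0.46 (SE 0.12, adjusted p = 0.0102) and SRF itself by 0.44 (SE 0.11, adjusted p = 0.00987). SRF stood at 126 CPM in R273H P72 replicate 1 and at 95.5 to 98.9 CPM in the other 3, and its rise was 0.13 without replicate 1 (adjusted p = 0.678). DUSP1, a phosphatase of MAP kinases, fell by 0.96 (SE 0.20, adjusted p = 0.00257) and the actin crosslinker FLNA by 0.34 (SE 0.10, adjusted p = 0.0248). Without R273H P72 replicate 1, FOSL2, EGR1 and FLNA did not pass either. EGR1 and FLNA also lost their calls without R175H P72 replicate 2 or R175H R72 replicate 1, and FLNA without R175H P72 replicate 1. With no batch term the log2 fold change was -0.10 for FLNA, 0.37 for EGR1 and 0.48 for FOSL2. In plain CPM the FLNA libraries of R273H P72 and R175H P72 overlapped.

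**Figure D4:**
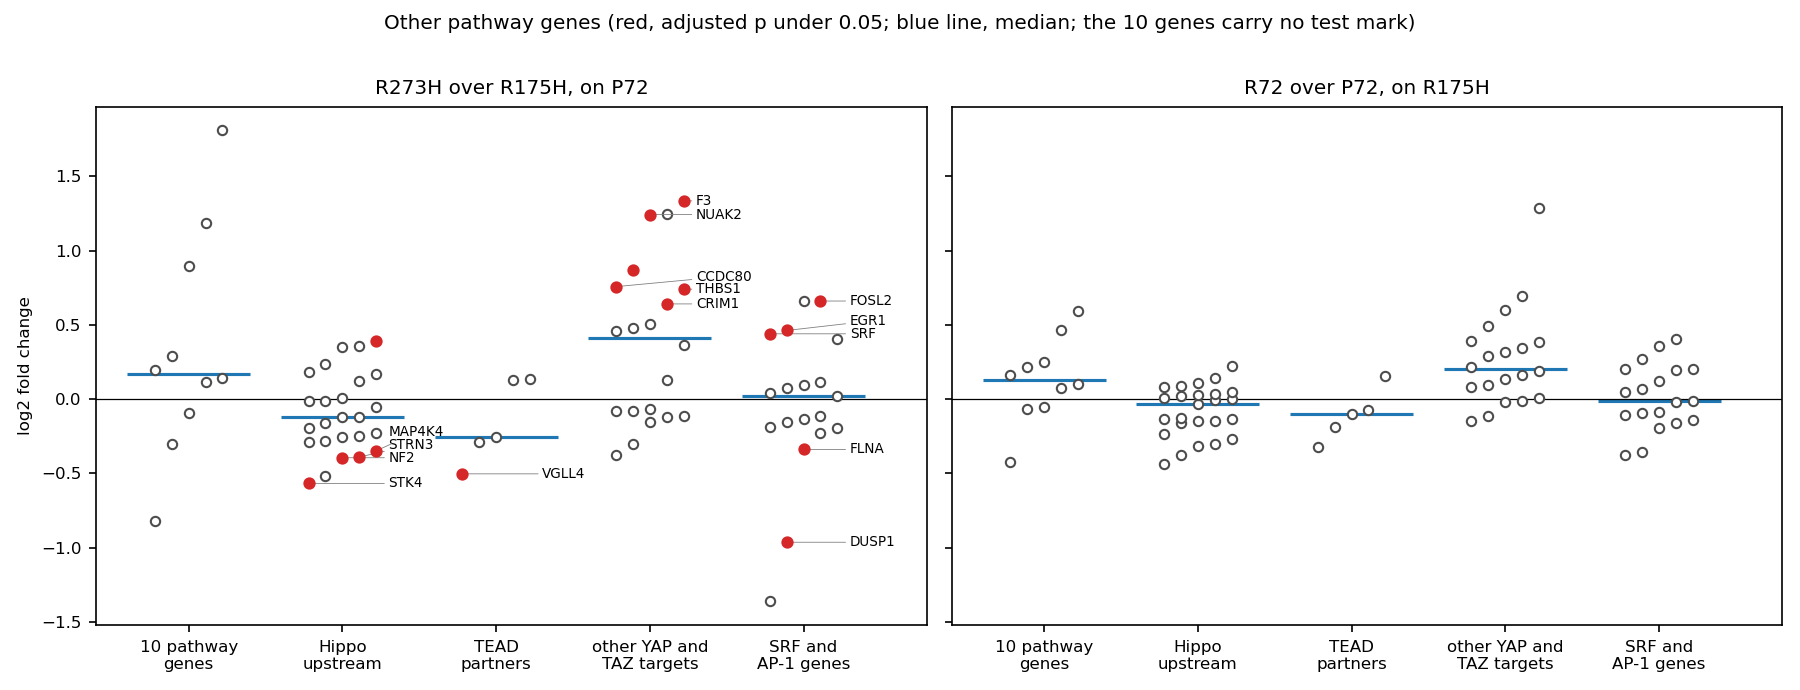
Log2 fold change (vertical axis) of the 10 genes and of 4 lists of pathway genes (horizontal axis) for R273H over R175H on P72 (left) and R72 over P72 on R175H (right); each circle is 1 gene, the blue line is the list's median, and red marks an edgeR adjusted p under 0.05, which is not marked for the 10 genes. On the left 6 of 20 other targets are red and higher and 4 of 25 upstream Hippo genes are red and lower, and on the right no gene of the 4 lists is red.

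Among the 5 genes whose levels ran most like CYR61 over the 11 libraries, by Pearson's r of log2(CPM + 0.5) over tested genes whose mean reached 10 CPM, were VIMP (r = 0.968), HNRNPA2B1 (0.947), ANLN (0.938) and ATAD1 (0.937). Without the 2 libraries farthest from the median of CYR61, R175H R72 replicate 1 and R273H P72 replicate 1, these values were between 0.842 and 0.909. Among the other 9 genes CTGF was the most like CYR61 (r = 0.872), and ANKRD1 had an r of 0.574. The closest to ANKRD1 were TARDBP (0.981), TOR3A (0.974), CCNF (0.970), UXS1 (0.970) and BCLAF1 (0.964). Without R273H P72 replicates 2 and 3, the farthest from the median of ANKRD1, these were between 0.907 and 0.954. WWTR1 had an r of -0.805 with ANKRD1. These are descriptions over 11 libraries that share groups and batches, with no test.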

How the data were processed

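RNA was measured in 11 libraries of H1299 made with the Lexogen QuantSeq 3′ kit and read as 75 bp single ends on a NextSeq, per the labels' protocols. The deposited table holds estimated counts per gene, whole numbers as deposited. The submitters' processing notes name Bowtie2, RSEM 1.2.12, DESeq2 and build hg38, and the sources used here do not give whether counting used the strand. The 10 genes and the lists were chosen with earlier results of these data known.

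Groups and batches came from the labels. Counts were fitted with edgeR 4.0.16 (R 4.3.3) in 1 quasi-likelihood model of 4 groups and the batch over all 11 libraries, with TMM scaling and filterByExpr (at least 10 counts, 15 in total). This left 16324 of 45965 genes, and 20641 had no count. The Benjamini-Hochberg method adjusted p-values over these genes, with 0.05 as threshold. Intervals are 95% intervals from the fit. The scripts were tested on simulated counts. Named were all 10 genes and, per list and comparison, up to 6 called members or the 2 of smallest p. Some of these are not reported here, but stay in the counts. Tried as alternatives were DESeq2 1.42.0, limma-voom (limma 3.58.1), RLE size factors, plain library totals, no filter, a stricter filter of 10 CPM in 3 libraries, a model with no batch term, one with a replicate block, b2 on its own, and leaving out each library. A value counts as reversed where its sign changed and either fit called it. Replicates differed beyond counting noise (chi-square per degree of freedom 4.24 to 20.1 in 12 pairs). Starts and exons are from GENCODE 29 (hg38).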

Additional observations from a re-analysis of the deposited data

Results flagged for a closer look

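In groups of 4 libraries, a value was listed here where its gap to the nearest other library, divided by the group's range, passed Dixon's 95% critical value for 4 values. Only R273H P72 has 4 libraries, and 81 genes were examined there, of which chance alone lists about 1 in 20. Of the 10 genes this met AJUBA, at 17.4 CPM in replicate 1 against 11.7 to 12.6 CPM in the other 3. Among the list genes, replicate 1 was low for TEAD2, at 55.0 CPM against 71.0 to 74.3, for VCL, at 361 CPM against 439 to 441, and for FLNA, at 571 CPM against 679 to 698. It was high for SRF, at 126 CPM against 95.5 to 98.9. THBS1 was low in replicate 3, at 20.8 CPM against 27.5 to 28.3. Replicate 1 is the b2 library of the group, and the other 3 are b1. The part of the batch in these 5 values was not tested.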

How the results depend on the processing

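Of 965 values of the 10 genes over 5 comparisons and their alternatives, 949 kept their side of the threshold, 9 lost and 7 gained a call, none reversed a call, and 65 changed sign without a call in either fit. On P72 the genes called between the hotspots were 2376, 866 inside b2 alone and 1214 to 2463 with each library left out (1214 without R175H R72 replicate 1, 1253 without R273H P72 replicate 1). Of the other targets 6 were called, 3 inside b2. For R72 on R175H 185 genes were called, 564 with no filter, 333 with DESeq2, 6 without a batch term, 81 with the replicate block and 24 to 272 with each library left out. For R72 on R273H 0 were called, 137 with no filter, 112 with DESeq2, 2 with limma-voom, 2 with the replicate block, 1 inside b2 and 0 to 6 with each library left out. For the difference 5 were called, 196 with no filter, 138 with DESeq2, 12 with limma-voom, 1 without a batch term, 2 with the replicate block and 0 to 48 with each library left out. For the hotspots on R72 7 were called, 16 with no filter, 2 with the stricter filter, 14 with DESeq2, 4 with limma-voom, 3 without a batch term, 2 with the replicate block and 3 to 9 with each library left out. Of the 10 genes, 1 was called with no filter and 1 with DESeq2, both for R72 on R273H and for the difference, against 0 as reported. These settings called different genes. The cause was not tested.

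No pairing by replicate number was seen: deviations of same-numbered libraries from their group means correlated from -0.615 to 0.241, over 0.1 in 1 of 9 pairs. The batch was left in these deviations, and the libraries of the lowest pair, R175H R72 replicate 1 and R273H P72 replicate 1, differ in batch. The values therefore cannot decide whether the numbers pair the libraries. With the replicate block, WWTR1 lost its call on P72 (log2 fold change -0.29), and no other of the 10 genes changed side. Over all 20 alternative settings on P72, WWTR1 kept its call in 12. Without the R273H R72 library the 3 comparisons that use it give no value. The stricter filter dropped AMOTL2, F3 and NUAK2. With 5 to 14 counts, AMOTL2 was limited by depth.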
